A study of Drosophila melanogaster with 34 samples.

Results

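The 14 sites described here are positions of the Drosophila melanogaster 18S ribosomal RNA, the RNA of the small ribosomal subunit, at which the ribose may carry a 2′-O-methyl group and for which the deposited tables list at least 1 guide RNA. They were taken from the 72 rRNA sites of those tables as all 18S sites with a FlyBase identifier of a guide, leaving out Cm419, Am425, Am441, Gm475 and Am549. The tables hold 24 sites in 18S rRNA, of which 19 have a listed guide and 5 do not, so the 14 are the guided 18S sites that remain once 5 are left out. The rule itself uses no score, though it was drawn up with earlier results of these data known. A site is named by its base and position, so that Um1357 is a methylated U at position 1357. In order of position the sites are Am28, Gm393, Am469, Um586, Am1061, Cm1096, Cm1303, Um1357, Gm1359, Cm1367, Gm1621, Am1806, Cm1831 and Gm1952.

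Box C/D small nucleolar RNAs (snoRNAs) direct this modification. Each pairs through a short antisense stretch with its target rRNA, and the methyltransferase Fibrillarin, bound to the same particle, methylates the nucleotide at a fixed distance from box D of the guide. One snoRNA can hold an antisense stretch beside each of its boxes D and D′, and so can be listed for more than 1 target, and several gene copies can encode guides for the same target. In flies most snoRNAs are processed from introns of host genes.

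RiboMeth-seq measured the sites in 34 libraries. RNA is broken by alkali, a methylated ribose protects the bond beside it, and reads seldom start or stop at such a position. The quantity used is the level score of the deposited tables, called the methylation score here. It is highest at 1, where hydrolysis is blocked most. It can also lie below 0, and it is therefore no fraction of methylated molecules. In bulk RNA, fewer cells with methylated rRNA and fewer methylated molecules in every cell cannot be told apart.

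The libraries fell into 9 groups. The S2R+ line, cultured Drosophila cells that the labels also tag as mesenchymal stem cells, was treated with double-stranded RNA against Fibrillarin (Fib_KD, 4 libraries) or against the bacterial gene lacZ (LacZ_KD, 4 libraries). Heads of female flies made up the other 26 libraries. Flies had 2.5 nM paraquat, a generator of oxidative stress, in 5% sucrose for 8 days (d17_PQ, 3 libraries) or 5% sucrose alone for 8 days (d17_CTR, 3 libraries). Others spent 8 days in the dark at 18, 25 or 29 °C (Heat_18, Heat_25 and Heat_29, 4 libraries each). The last pair of groups ate food with 0.25x sugar that is labelled as without "a.a." for 10 days (Nut_Low_s_aa, 4 libraries) or 1x home-made food for 10 days (Nut_1x, 4 libraries). The labels give neither the genotype of the flies nor their age at the start, and they do not state whether a replicate is its own culture or its own batch of flies. The p-values therefore measure the spread between these libraries, which may be technical. The tables hold rRNA positions only, so neither the labelled cells nor the heads could be checked against marker genes, and the extent of the Fibrillarin knockdown was not measured in them.

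Median coverage over all 72 sites lay between 28370.5 and 104242 reads in the 34 libraries, and coverage of the 14 sites between 3503 reads (Cm1096) and 295708 reads (Gm1621). The numbers given to the libraries fall into separate stretches, which are called library sets here. Replicates 1 and 2 of both cell groups lie in one stretch, set A, and replicates 3 and 4 in another, set B. The paraquat libraries have a stretch of their own, and the temperature and nutrient libraries share another. The sets are read from these numbers alone, and the sources do not say whether libraries of a set were made or sequenced together.

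The 14 sites lie in 3 stretches of 18S rRNA: 4 sites at positions 28 to 586, 6 at 1061 to 1367 and 4 at 1621 to 1952. The tables list 25 guide identifiers for them. At 7 sites 1 identifier is listed and at 7 sites more than 1, with at most 4, at Um1357. For 4 sites a second name in the tables has a position lower by one, 1356 for Um1357, 1358 for Gm1359, 1366 for Cm1367 and 1620 for Gm1621. Only 1 of the 25 identifiers was named by the reference gene table. It is FBgn0286758, the gene snoRNA:Me18S-G1358c on chromosome 3L, positions 27267383 to 27267450 of the dm6 build, and it is listed for both Um1357 and Gm1359. Counting this gene, 15 snoRNA genes of RefSeq carry in their symbols the base and position of 11 of the 14 sites, and the other 14 genes rest on the symbol alone. Some of these genes are neighbours in the genome. The genes snoRNA:Me18S-U1356a, b and c, named for Um1357, lie within 568 bases on 3L, and snoRNA:Me18S-G1358a and b, named for Gm1359, within 1120 bases on 3R. The genes named for Cm1367, Gm1952 and Am1061 lie within 1336 bases on 2R.

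Fibrillarin knockdown asks which of the sites lose score when the common methyltransferase of the guide particles is targeted. Of the 14 sites, 12 fell in Fib_KD cells, 0 rose and 2 did not pass the test, Am1806 and Gm1952 (limma, adjusted p under 0.05 over all 72 sites). Over all 72 sites 80.6% fell and 0.0% rose, so the share that fell among the 14 is near that of the tables as a whole. The 72 include the 14 and also sites without a listed guide. Of the other 45 guided sites 44 fell and 0 rose, a larger share than among the 14. The median difference was -0.180 over the 14 sites, -0.143 over all 72 and -0.156 over the other 45 guided sites. At 12 of the 14 every Fib_KD library lay below every LacZ_KD library, which was so at 79.2% of all sites, and at 0 of the 14 every Fib_KD library lay above (0.0% of all sites). The differences of the 12 ran between -0.0621 at Gm1621 and -0.462 at Am469. The median score of a library over all sites was lower in Fib_KD cells, by a difference of -0.145 between the group means, so the sites were also compared relative to the library medians. Of the 14 sites 6 were then lower and 3 higher, beside 34.7% of all sites lower and 41.7% higher. Am28, Gm393 and Gm1621 turned to higher values, 0.0662, 0.0630 and 0.0829, and Am1061, Gm1359 and Cm1831 no longer passed (adjusted p = 0.569, 0.305 and 0.135, limma). This step takes out the fall common to most sites, so any site that fell by less than the medians turns higher by it.

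**Figure D1:**
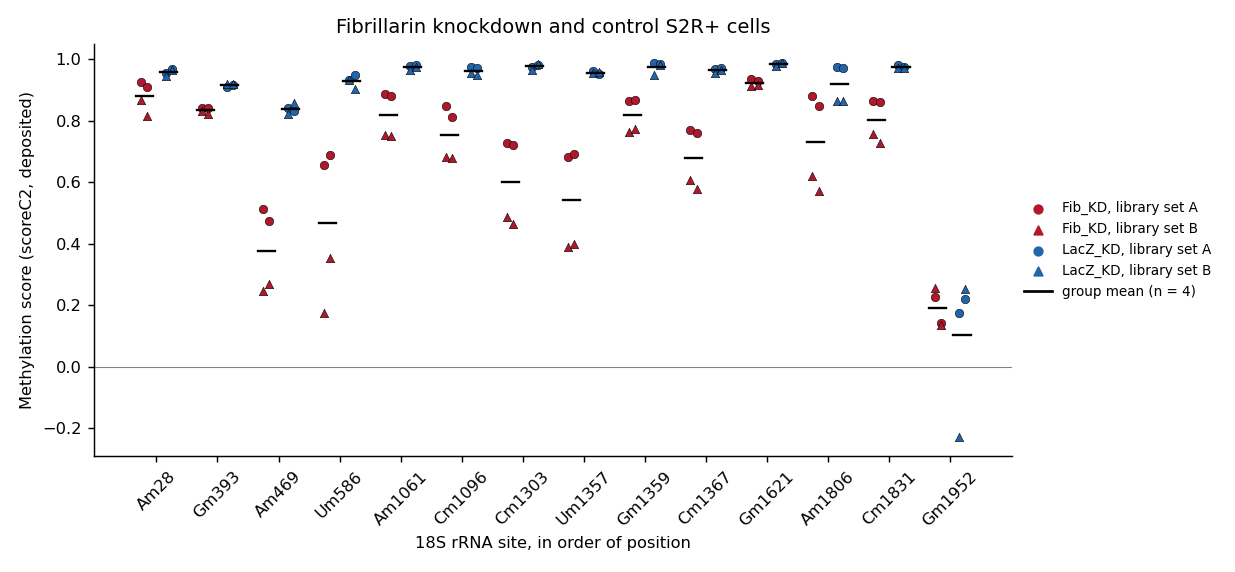
Methylation score (no unit, vertical axis) of the 14 guided 18S sites in order of position, with each Fib_KD library in red at the left of a site and each LacZ_KD library in blue at its right, circles for set A, triangles for set B and a bar for the mean of 4 libraries. At 12 sites all red points lie below all blue points, and at Gm1952 both groups lie between -0.230 and 0.256.

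Am469 had the largest fall. Its score was 0.513, 0.475, 0.246 and 0.270 in the 4 Fib_KD libraries, against 0.842, 0.832, 0.822 and 0.857 in the 4 LacZ_KD libraries. The groups did not overlap, and the Fib_KD libraries of set B were lower than those of set A. The difference was -0.462 (adjusted p = 0.000318, limma). Am469 was also the only one of the 13 sites other than Gm1952 with a LacZ_KD mean under 0.9, at 0.838 ± 0.0150 (SD, n = 4), and its Fib_KD mean was 0.376 ± 0.137 (SD, n = 4).

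Um586 fell almost as far, with the largest spread of the 14 sites among Fib_KD libraries. Its score was 0.657, 0.688, 0.175 and 0.354 in Fib_KD cells, against 0.933, 0.949, 0.932 and 0.902 in LacZ_KD cells. No Fib_KD library reached a LacZ_KD library. The difference was -0.461 (adjusted p = 0.00543, limma), with an SD of 0.247 among Fib_KD and 0.0196 among LacZ_KD libraries. Coverage was low here, at 6479 to 11359 reads in Fib_KD and 7407 to 12055 in LacZ_KD libraries.

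Um1357 and Cm1303, both in the middle stretch, started close to 1 and came next. Um1357 had scores of 0.682, 0.693, 0.3896 and 0.397 in Fib_KD cells, against 0.961, 0.951, 0.955 and 0.957 in LacZ_KD cells. The 4 LacZ_KD libraries were nearly level, while the Fib_KD libraries split by set. The difference was -0.416 (adjusted p = 0.00143, limma). Cm1303 had scores of 0.727, 0.722, 0.487 and 0.463 in Fib_KD cells, against 0.976, 0.980, 0.965 and 0.984 in LacZ_KD cells. The same split by set is seen, and the difference was -0.377 (adjusted p = 0.00107, limma).

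Cm1367, close after Gm1359, had scores of 0.771, 0.759, 0.606 and 0.577 in Fib_KD cells, against 0.967, 0.971, 0.954 and 0.963 in LacZ_KD cells. The groups did not overlap, and the difference was -0.286 (adjusted p = 0.000711, limma). Gm1359, which lies between Um1357 and Cm1367, kept more of its score. It had 0.865, 0.866, 0.764 and 0.773 in Fib_KD cells, against 0.988, 0.984, 0.948 and 0.981 in LacZ_KD cells. LacZ_KD replicate 3 was the lowest of its group, though still above every Fib_KD library, and the difference was -0.158 (adjusted p = 0.00106, limma).

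The smallest falls were at Gm1621, Am28 and Gm393. Gm1621 had scores of 0.934, 0.927, 0.914 and 0.916 in Fib_KD cells, against 0.985, 0.988, 0.979 and 0.988 in LacZ_KD cells. Even the highest Fib_KD library lay below the lowest LacZ_KD library, and a difference of -0.0621 passed the test (adjusted p = 0.000253, limma). Am28 had scores of 0.927, 0.909, 0.866 and 0.814 in Fib_KD cells, against 0.955, 0.967, 0.946 and 0.963 in LacZ_KD cells. The gap between the groups was narrow, and the difference was -0.0788 (adjusted p = 0.0152, limma). Gm393 had scores of 0.842, 0.840, 0.832 and 0.820 in Fib_KD cells, against 0.910, 0.915, 0.918 and 0.918 in LacZ_KD cells. Its spread within either group was small against the difference of -0.0821 (adjusted p = 8.22e-05, limma), the smallest adjusted p of the 14 sites. All 3 fell by less than the median score of the libraries, as given above.

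Of the remaining sites that passed, Cm1096 averaged 0.754 ± 0.0881 in Fib_KD and 0.962 ± 0.0121 in LacZ_KD cells (SD, n = 4 each; difference -0.208, adjusted p = 0.0018, limma). Cm1831 averaged 0.802 ± 0.0712 in Fib_KD and 0.974 ± 0.00349 in LacZ_KD cells (difference -0.172, adjusted p = 0.00165). Am1061 averaged 0.818 ± 0.0760 in Fib_KD and 0.974 ± 0.00740 in LacZ_KD cells (difference -0.156, adjusted p = 0.00363). None of these 3 had a Fib_KD library that reached the LacZ_KD range.

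Am1806 narrowly missed the threshold. Its score was 0.879, 0.848, 0.620 and 0.571 in Fib_KD cells, against 0.974, 0.969, 0.864 and 0.864 in LacZ_KD cells. Fib_KD replicate 1 lay above LacZ_KD replicates 3 and 4, so the groups overlapped over all 8 libraries. The difference was -0.188 (adjusted p = 0.05001, limma). Within each set both Fib_KD libraries were below both LacZ_KD libraries. With the replicate number as a block, which here also takes up the set, its adjusted p was 0.00906, and 13 of the 14 sites then fell, beside 83.3% of all sites lower and 0.0% higher. LacZ_KD libraries of set B were themselves lower than those of set A at Am1806, by a difference of -0.107 (adjusted p = 0.0410, limma). It was the only one of the 14 sites called in that comparison within LacZ_KD cells, in which 2.78% of all sites were lower and 0.0% higher.

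Gm1952 was the exception to the high control scores. It was the lowest of all 72 sites in 32 of the 34 libraries. Its score was 0.228, 0.142, 0.256 and 0.137 in Fib_KD cells, against 0.175, 0.221, -0.230 and 0.252 in LacZ_KD cells. The groups overlapped, and 1 LacZ_KD library, replicate 3, lay below 0. The means were 0.191 ± 0.0605 in Fib_KD and 0.104 ± 0.225 in LacZ_KD cells (SD, n = 4 each), a difference of 0.0865 (adjusted p = 0.478, limma). Without LacZ_KD replicate 3 the LacZ_KD mean was 0.216 ± 0.0388 (SD, n = 3) and the difference -0.0250, so the sign rests on that library. With control scores this low there was little room for a fall. The test therefore cannot show whether Gm1952 needs Fibrillarin. A guide is listed for Gm1952 as for the other 13 sites, and RefSeq's 18S genes, 1995 bases long, have 43 bases after position 1952, if the site names count on that sequence.

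The read ends behind the scores were counted per 10000 reads of coverage, 5′ and 3′ ends together. They come from the same reads as the score and were given no test of their own. Cm1303 had 367 ± 144 ends in Fib_KD and 22.3 ± 7.15 in LacZ_KD cells (SD, n = 4 each), a ratio of 16.5, the highest of the 14 sites. Um1357 had 626 ± 208 ends in Fib_KD and 62.2 ± 11.6 in LacZ_KD cells, a ratio of 10.1. Am469, whose score fell most, had 614 ± 140 ends in Fib_KD and 158 ± 18.9 in LacZ_KD cells. Its ratio was only 3.90, since many ends were present in LacZ_KD cells already. The order of the sites by score difference and by ratio of ends therefore differed.

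Cm1367, Um586, Gm1359, Cm1831, Am1061, Cm1096 and Gm1621 had ratios between 5.18 and 8.50. Am1806, Am28 and Gm393 had ratios of 3.38, 2.74 and 1.98. At Gm1952 the ends hardly differed, at 434 ± 80.3 in Fib_KD and 416 ± 45.1 in LacZ_KD cells, a ratio of 1.05, and the 26 head libraries had 339 to 594. LacZ_KD replicate 3, with the score below 0, had 426 ends at Gm1952, inside the range of the other LacZ_KD libraries, 349 to 447. How the score is formed from the ends is not stated in the sources used here.

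**Figure D2:**
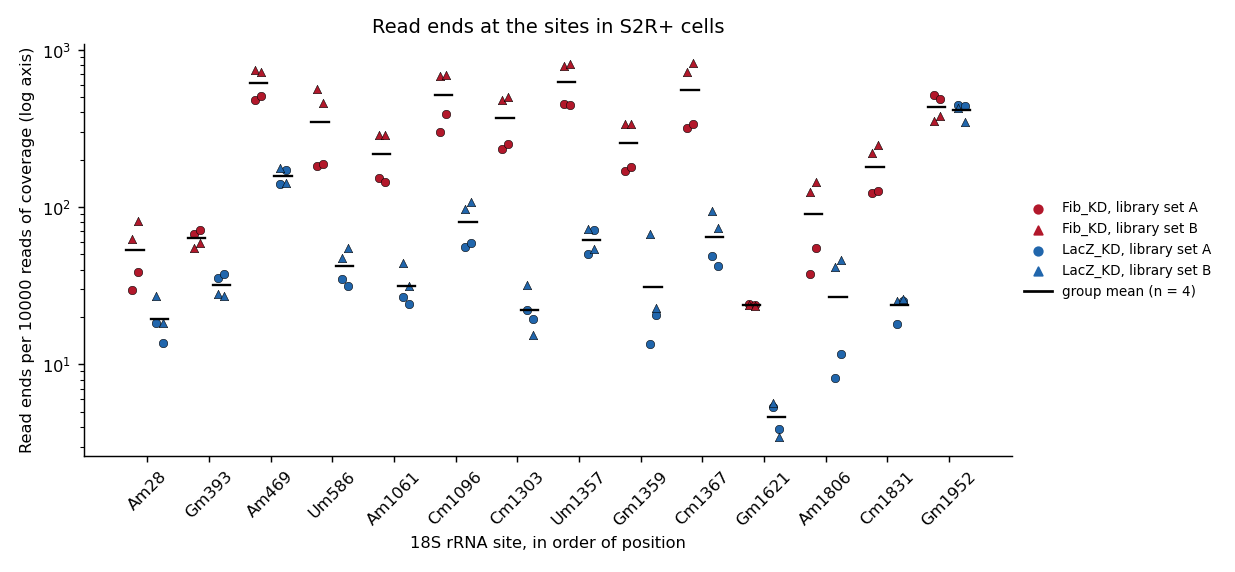
Read ends per 10000 reads of coverage (log axis) at the 14 sites in order of position, with Fib_KD libraries in red at the left, LacZ_KD libraries in blue at the right, circles for set A, triangles for set B and a bar for the mean of 4 libraries. Ends are more frequent in Fib_KD cells at 13 sites and nearly level at Gm1952, 434 against 416 on average.

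The 5′ and 3′ ends had unequal shares at different sites. In Fib_KD cells 5′ ends made up 86.8% of all ends at Am469, 91.2% at Am1061, 88.5% at Cm1303, 87.1% at Am1806 and 76.5% at Cm1367. They made up 6.34% at Am28, 21.1% at Um1357, 21.5% at Gm393 and 26.9% at Um586. A measure from 1 kind of end alone would thus rest on few reads at some sites. At Am28, for example, 14 5′ ends and 207 3′ ends were counted in the 4 Fib_KD libraries together, against 7 and 61 in the LacZ_KD libraries.

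The knockdown effect differed between the library sets. At 10 of the 14 sites the fall was deeper in set B than in set A (interaction term, limma, adjusted p under 0.05), and at 0 it was shallower. Over all 72 sites 55.6% were deeper in set B and 0.0% shallower. The largest differences between sets were -0.384 at Um586, -0.294 at Um1357, -0.246 at Cm1303 and -0.239 at Am469. Am28, Gm393, Gm1621 and Gm1952 did not pass this test. Within set A 12 of the 14 sites fell (80.6% of all sites), with a median difference of -0.117, and within set B 13 fell (83.3% of all sites), with a median of -0.2495; in both sets 0 rose (0.0% of all sites). The sites kept much of their order, with a Pearson's r of 0.947 and a Spearman's rho of 0.943 between the differences in set A and in set B, a description over 14 sites that share the same libraries. On the log2 odds scale, an alternative chosen after the data were seen, 5 of the 14 sites were deeper in set B and 0 shallower, beside 16.7% of all sites deeper and 0.0% shallower. What sets them apart was not tested.

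**Figure D3:**
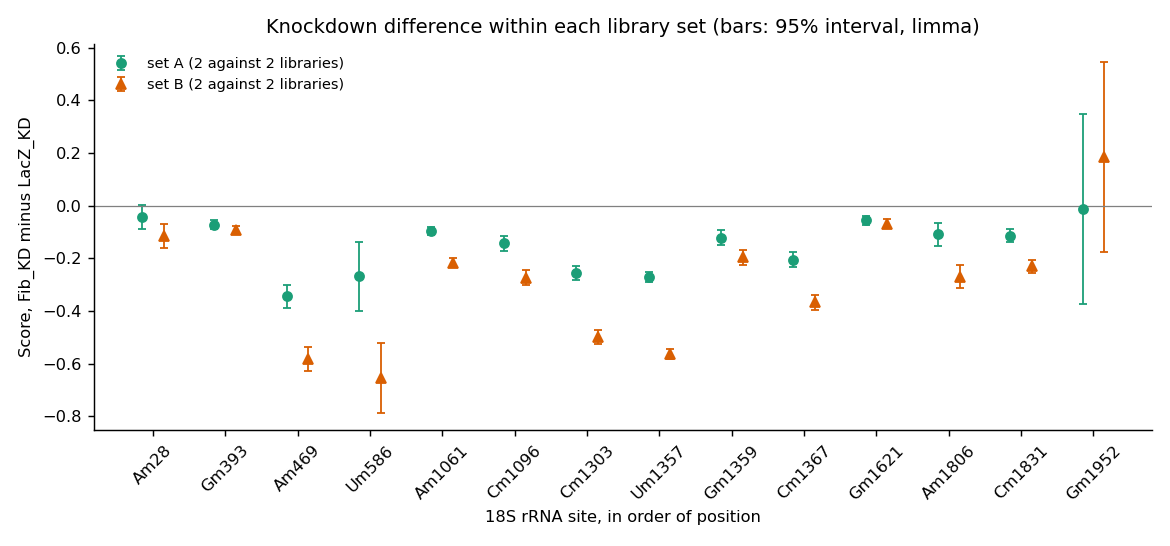
Score difference, Fib_KD minus LacZ_KD, within set A (green circles) and within set B (orange triangles) at the 14 sites in order of position, with 95% intervals from limma on 2 against 2 libraries per set. At Um1357 the difference is -0.563 in set B and -0.269 in set A, while at Gm393 and Gm1621 the sets lie close together.

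Falls of different depth stood beside each other along 18S rRNA. The median difference was -0.271 for the 4 sites at positions 28 to 586, -0.247 for the 6 at 1061 to 1367, and -0.117 for the 4 at 1621 to 1952, with single sites between -0.462 and -0.0788, between -0.416 and -0.156 and between -0.188 and 0.0865. The median was -0.189 for the 7 sites with 1 listed identifier (-0.198 for the 6 without Gm1952) and -0.158 for the 7 with more. The 2 methylated U sites, Um586 and Um1357, had differences of -0.461 and -0.416. The 4 G sites had the smallest median of the bases, -0.0721, against -0.172 for A and -0.247 for C, but each base has few sites and no test was made. Gm1952, low in both cell groups, counts among the 4 G sites and among the 4 at 1621 to 1952, and so enters both medians.

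Sites that list the same guide can be compared directly in each library. Um1357 and Gm1359 both list FBgn0286758, and it is the only identifier that 2 of the 14 sites share. In Fib_KD cells Um1357 averaged 0.540 ± 0.170 and Gm1359 0.817 ± 0.0562, and in LacZ_KD cells Um1357 averaged 0.956 ± 0.00402 and Gm1359 0.975 ± 0.0183 (SD, n = 4 each). The difference between the sites changed by -0.257 in Fib_KD cells, so Um1357 fell further, and the libraries of the groups did not overlap in this measure. An exact two-sided permutation test over the 8 libraries gave p = 0.0286, the smallest that 4 against 4 allows, and 0.0333 adjusted over 7 pairs. An exact permutation of signs within the 4 same-numbered pairs cannot go below p = 0.125, the value it gave. Each site also lists other identifiers that the pair does not share. The 2 sites lie close together, and the sources do not state which neighbouring positions enter a score. Their scores may therefore depend on some of the same read ends.

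In the heads the same pair stood close together. Um1357 was below Gm1359 in 23 of 26 head libraries, with differences, Um1357 minus Gm1359, between -0.0463 and 0.00346.

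The other 6 pairs join one of the 14 sites with a site outside them, and they were added after the tables were seen. Gm393 shares FBgn0082931 with 28S Gm2774, in the RNA of the large subunit. In Fib_KD cells Gm393 averaged 0.833 ± 0.00978 and 28S Gm2774 0.520 ± 0.0531, and in LacZ_KD cells 0.915 ± 0.00360 and 0.947 ± 0.00395. It was the only one of the 7 pairs in which the first site, in 18S rRNA, fell less, with a change of 0.344 in the difference between the sites (exact permutation p = 0.0286, adjusted 0.0333).

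Um586 shares FBgn0060291 with 28S Cm3412 and 28S Um3415, which had differences of -0.155 and -0.122, with gaps in change of -0.305 and -0.339, so that Um586 fell further. Um1357 shares FBgn0082948 with 28S Am2634, which fell by 0.0808, a gap in change of -0.335. Cm1367 shares FBgn0082951 with 28S Cm3412, with a gap of -0.130. These 4 pairs each had the same exact permutation p of 0.0286, adjusted 0.0333. Am469 shares FBgn0263851 with 18S Gm475, and their differences of -0.462 and -0.378 were apart by -0.0847 (exact permutation p = 0.686), less than the spread between libraries. In 6 of 7 pairs, then, the gap differed between the groups by the test that leaves out the pairing of the replicate numbers. Sites that share no guide were not compared in this way. The count of 6 is therefore not read as particular to sites that share a guide. Within same-numbered pairs the exact permutation of signs gave p = 0.125 in each of these 6, the smallest it allows, and 0.875 for Am469 and Gm475, so the paired test cannot pass the threshold for any pair.

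**Figure D4:**
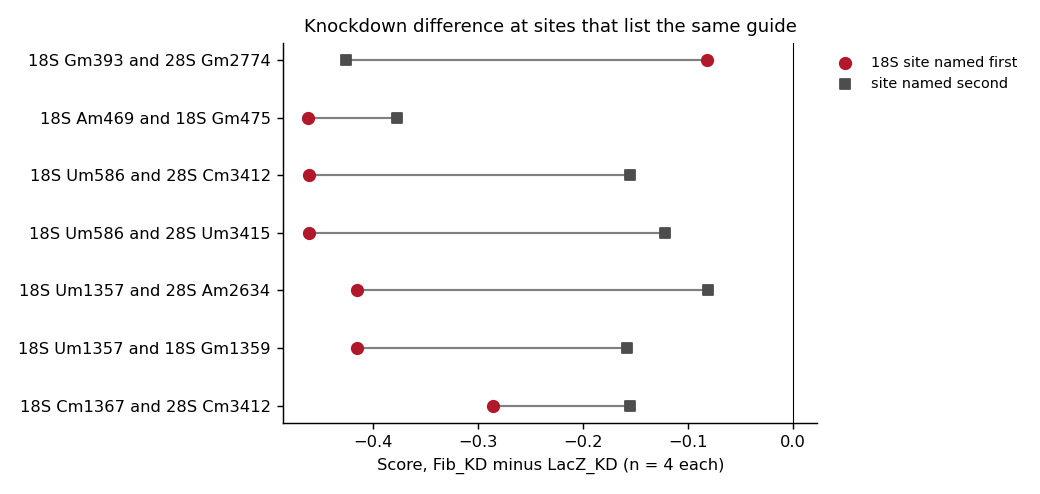
Score difference, Fib_KD minus LacZ_KD (n = 4 libraries each), of the 2 sites in each of 7 pairs that list the same guide identifier, the first-named 18S site as a red circle and the other site as a grey square. Um1357 at -0.416 lies left of Gm1359 at -0.158, and Gm393 at -0.0821 is the only circle to the right of its square.

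In heads most of the sites were close to fully protected. At 11 of the 14 every one of the 26 head libraries scored above 0.9, and at 8 above 0.95. The exceptions were Am469, with a lowest, median and highest head score of 0.747, 0.792 and 0.846, Cm1303, with 0.889, 0.963 and 0.993, and Gm1952, with -0.207, 0.126 and 0.273. The same counts over all sites are not given here, and the rule left out 5 guided 18S sites. High scores in heads are thus not called particular to the 14. Am469 was the second lowest of the 14 sites in each of the 34 libraries, cells included. Gm1952 was the lowest in 33 of them and Um586 in the other, Fib_KD replicate 3. The means of the 7 head groups spanned less than 0.02 at 9 sites. They spanned 0.0832 at Cm1303, 0.0640 at Am469, 0.0364 at Um1357, 0.0328 at Um586 and 0.139 at Gm1952. Over all 9 groups Fib_KD was the lowest at 13 of the 14 sites and LacZ_KD the second lowest at 10. This order was not counted over all sites and is not called particular to the 14.

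**Figure D5:**
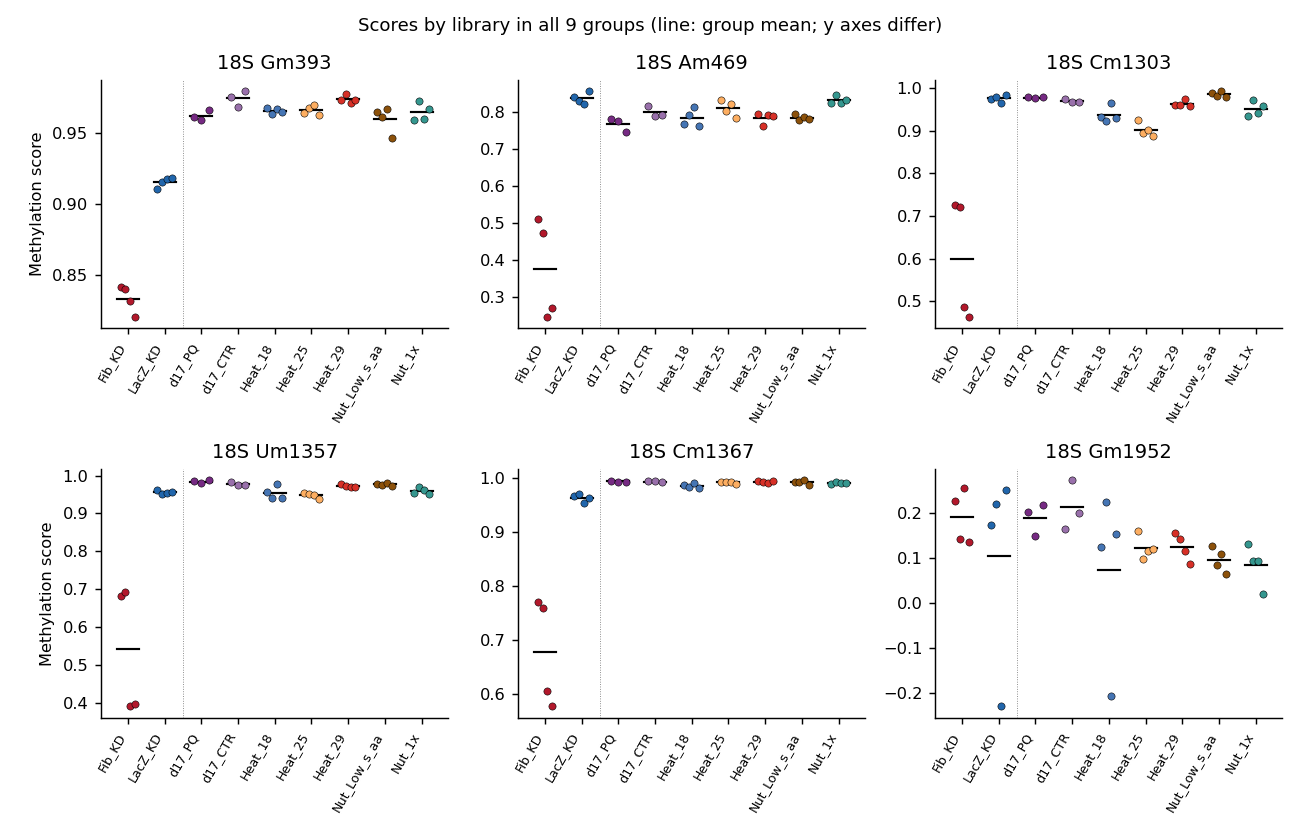
Methylation score of 6 sites in each library of the 9 groups, with a line for the group mean and the cell groups left of the dotted line. Vertical axes differ between panels: the head groups spread over 0.0832 between means at Cm1303 but over 0.00830 at Cm1367, and Gm1952 stays under 0.28 in every group.

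Paraquat changed none of the 14 sites by the test (0 lower and 0 higher, limma), as it changed 0.0% of all 72 sites in either direction. An unadjusted p under 0.05 was reached at 3 of the 14 sites and at 8 of all 72 (11.1%), and the median difference was -0.000849 over the 14. The smallest p was at Gm393, with scores of 0.961, 0.960 and 0.966 in d17_PQ heads, against 0.976, 0.968 and 0.980 in d17_CTR heads. The groups did not overlap, but the difference of -0.0122 had an adjusted p of 0.352 (limma). Am469, with a difference of -0.0312, and Cm1303, with 0.00768, also did not overlap and had the same adjusted p. Every d17_PQ library thus lay below at 2 of the 14 sites, as at 11.1% of all sites, and above at 1, as at 4.17%.

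Heads at 29 °C were compared with those at 18 and at 25 °C. The 3 temperature comparisons share groups, so they are not independent of one another. At 29 against 18 °C, 2 of the 14 sites were higher and 0 lower (limma), beside 19.4% of all sites higher and 1.39% lower. The median difference was 0.00290 over the 14 and 0.00262 over all sites. Relative to the library medians the count turned round, with 0 higher and 3 lower, Cm1096, Gm1621 and Cm1831 (adjusted p = 0.0474, 0.00556 and 0.0244, limma), beside 12.5% of all sites higher and 29.2% lower. At 29 against 25 °C, 2 of the 14 were higher and 0 lower, beside 6.94% of all sites higher and 0.0% lower. Relative to the library medians 2 were higher, Cm1303 and Um1357, and 1 lower, Gm1621, beside 6.94% of all sites higher and 9.72% lower. At 18 against 25 °C, 0 of the 14 were called in either direction, beside 1.39% of all sites lower and 0.0% higher, while 2 of the 14 had an unadjusted p under 0.05, as had 15.3% of all sites.

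Cm1303 varied most between the 3 temperature groups. Its score was 0.933, 0.923, 0.965 and 0.930 at 18 °C, 0.926, 0.895, 0.901 and 0.889 at 25 °C, and 0.962, 0.961, 0.974 and 0.959 at 29 °C. Every library at 29 °C lay above every library at 25 °C, and the libraries at 25 °C were the lowest of the 3 groups apart from 1 that overlapped with those at 18 °C. The score was thus not ordered by temperature. The difference of 29 minus 25 °C was 0.0610 (adjusted p = 0.00369, limma), and that of 18 minus 25 °C was 0.0348 (adjusted p = 0.0989). Heat_25 had the lowest mean of all head groups at Cm1303, 0.903, against 0.964 in Heat_29. The control heads of the other experiments averaged 0.952 (Nut_1x) and 0.970 (d17_CTR). Why Heat_25 was lower than these was not tested.

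Gm393 was the site called in both comparisons at 29 °C. Its score was 0.967, 0.963, 0.967 and 0.965 at 18 °C, 0.964, 0.968, 0.970 and 0.963 at 25 °C, and 0.973, 0.978, 0.971 and 0.973 at 29 °C. All libraries at 29 °C lay above all others, by small steps. The difference was 0.00823 against 18 °C (adjusted p = 0.0170, limma) and 0.00761 against 25 °C (adjusted p = 0.0455). The second of these calls held under 2 of 16 alternative settings. Relative to the library medians, which were higher at 29 °C by 0.00570 than at 18 °C, the first difference was 0.00253 (adjusted p = 0.392).

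Cm1367 was called at 29 against 18 °C. Its score was 0.986, 0.983, 0.992 and 0.981 at 18 °C, 0.993, 0.993, 0.992 and 0.989 at 25 °C, and 0.994, 0.993, 0.990 and 0.994 at 29 °C. Replicate 3 at 18 °C overlapped with the libraries at 29 °C. The difference was 0.00742 (adjusted p = 0.0414, limma), and this call held under 7 of 16 alternative settings. Um1357, not called, had differences of 0.0186 at 29 against 18 °C (adjusted p = 0.0956) and 0.0244 at 29 against 25 °C (adjusted p = 0.0906). In the comparison of 29 with 25 °C, Um1357, Cm1303 and Gm393 were the 3 sites with every library higher, as at 20.8% of all sites, and 0 had every library lower, as at 2.78%. Against 18 °C, Gm393 alone had every library higher, as at 16.7% of all sites. Between 18 and 25 °C the groups overlapped at all 14 sites, while at 5.56% of all sites every library at 18 °C was lower.

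Heads on the low-nutrient food were higher at 0 of the 14 sites and lower at 1, Am469, beside 4.17% of all sites lower and 0.0% higher (limma). Its score was 0.795, 0.780, 0.788 and 0.781 in Nut_Low_s_aa heads, against 0.826, 0.846, 0.825 and 0.833 in Nut_1x heads. The groups did not overlap. The difference was -0.0466 (adjusted p = 0.00281, limma), the largest fall of all 72 sites in this comparison. On the log2 odds scale it missed the threshold (adjusted p = 0.0774, limma), as it did with all 9 groups in 1 fit (adjusted p = 0.998, limma). The call at Am469 held under 14 of 16 alternative settings.

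Cm1303 and Um1357 had higher values without passing the test. Cm1303 had scores of 0.989, 0.982, 0.993 and 0.980 in Nut_Low_s_aa heads, against 0.935, 0.974, 0.942 and 0.958 in Nut_1x heads. All Nut_Low_s_aa libraries lay above all Nut_1x libraries, but the difference of 0.0340 had an adjusted p of 0.0638 (limma). Um1357 averaged 0.977 ± 0.00306 in Nut_Low_s_aa and 0.959 ± 0.00911 in Nut_1x heads (SD, n = 4 each), a difference of 0.0178 (adjusted p = 0.0732), again without overlap. So every Nut_Low_s_aa library was higher at 2 of the 14 sites and lower at 1, each of which held at 6.94% of all sites. Without Nut_1x replicate 2, the highest of its group at both sites, Cm1303 and Um1357 passed as well, so that 2 of the 14 sites were higher and 1 lower, beside 4.17% of all sites in each direction.

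S2R+ control cells were lower than heads at most of the sites. The comparison was made with the average over d17_CTR, Heat_25 and Nut_1x, the control groups of the 3 head experiments, 11 libraries in all. Of the 14 sites 9 were lower in LacZ_KD cells, 2 were higher and 3 did not pass (limma), beside 68.1% of all sites lower and 4.17% higher. With all 9 groups in 1 fit, which shares the spread of the Fib_KD libraries, 1 of the 14 was lower, Gm393, and 0 higher, beside 40.3% of all sites lower and 0.0% higher. The median difference was -0.0174 over the 14 and -0.0197 over all 72 sites. At 5 sites every LacZ_KD library lay below every head control library, as at 38.9% of all sites, namely Gm393, Cm1096, Cm1367, Am1806 and Cm1831. At 0 of them it lay above (0.0% of all sites). Cells and heads lie in different library sets, so source and set cannot be told apart.

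Gm393 had the smallest p of the 14, with scores of 0.910, 0.915, 0.918 and 0.918 in LacZ_KD cells, against a lowest, median and highest score of 0.959, 0.968 and 0.980 in head controls. The gap between the groups was wider than the range within either. The difference was -0.0530 (adjusted p = 3.14e-09, limma). Am1806 had the largest difference, -0.0740 (adjusted p = 0.00258), with LacZ_KD cells at 0.918 ± 0.0619 (SD, n = 4) and head controls between 0.985 and 1.00, and within LacZ_KD cells it differed by set as given above. The 2 sites that were higher in LacZ_KD cells overlapped with the heads. They were Cm1303, by 0.0343 (adjusted p = 0.00118), and Am469, by 0.0241 (adjusted p = 0.0264). At both the head control groups differed among themselves, a spread that does not enter these p-values. Cm1303 averaged 0.903 in Heat_25, 0.952 in Nut_1x and 0.970 in d17_CTR heads, against 0.976 in LacZ_KD cells. Am469 averaged 0.811 in Heat_25, 0.832 in Nut_1x and 0.7995 in d17_CTR heads, against 0.838 in LacZ_KD cells. With a random block for the library set, Am469 and Um586 were no longer called (adjusted p = 0.160 and 0.170).

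The library medians were lower in LacZ_KD cells than in head controls by a difference of -0.0280. Relative to those medians 2 of the 14 sites were lower in LacZ_KD cells and 7 higher, beside 26.4% of all sites lower and 50.0% higher. Of the sites, Am28, Um586, Am1061, Cm1096, Gm1621 and Cm1831, all lower in LacZ_KD cells as deposited, turned to positive differences of at most 0.0201, of which Am1061, Gm1621 and Cm1831 passed the test. Gm393 and Am1806 were still lower, and Cm1367 was at -0.000121. On the scores as deposited, not relative to the medians, Um1357, Gm1359 and Gm1952 did not pass. Without LacZ_KD replicate 3, Gm1952 passed on these deposited scores and was higher in LacZ_KD cells by 0.0757 (adjusted p = 0.0189, limma). Um1357 and Gm1359 had differences of -0.00580 and -0.00926, which turned to higher, and passed, relative to the library medians (0.0222 and 0.0188).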

How the data were processed

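RiboMeth-seq libraries of S2R+ cells and fly heads were analysed from the deposited tables, 1 per library, of 72 rRNA sites. Per the labels' protocols, 150 ng of RNA underwent hydrolysis (16 min, 96 °C), and single reads of 50 bases were taken. This text names only the cells, and nothing is stated on the extraction of head RNA. Per the submitters' processing notes, Trimmomatic 0.39, Bowtie2 and the build dm6 were used. The authors deposited 3 scores per site, and the level score was used as deposited, while the other scores served as alternatives. The score formula is not stated in these sources. The deposited coverage signal is reads over the position without normalization, and 5′ and 3′ read ends were deposited with 0.1 as a placeholder, in 32 and 6 of 476 values of the 14 sites. Placeholders were taken as 0.

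Each comparison was fitted over all sites on the linear score with limma 3.58.1 (lmFit and eBayes, R 4.3.3), with p adjusted by Benjamini-Hochberg over the 72 sites and called under 0.05. The temperature groups shared 1 fit. The fit was tested on simulated data. Pairs of sites that share a guide were compared with exact permutation tests over libraries in Python 3.11.15. The score's formula being unknown, no interval for a single library was made. No pair of libraries held identical scores. Same-numbered libraries of the cell groups deviated together over the sites (correlations of 0.165 to 0.574 in 4 pairs). The number goes with the library set, so pairing by number and a shared set cannot be told apart.

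All 14 sites are named. Values per library are given for the 5 largest and 3 smallest knockdown differences, sites that did not pass, the pair that shares a guide, Gm1952, and sites called in a head comparison or with its smallest p. Non-members are named where they share a guide. Members, lists and comparisons were chosen with earlier results of these data known. No sequence is shown, as none was at hand. Settings tried beside these were the log2 odds of the score, a replicate block, centring on library medians, the other scores, a coverage minimum of 10000 reads, a variance trend, all 9 groups in 1 fit, library sets and leaving out each library.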

Additional observations from a re-analysis of the deposited data

Results flagged for a closer look

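Among 98 sets of 1 site in 1 group of 4 libraries, 6 held a library that stood far from the others, where chance gives about 1 in 20. At Gm1952, LacZ_KD replicate 3 scored -0.2303 and the other LacZ_KD libraries 0.1747 to 0.2517. The same library was low at Gm1359, at 0.9482 beside 0.9812 to 0.9879, and had 67.3 read ends per 10000 reads there, where the others had 13.5 to 22.9. Heat_29 replicate 2 scored 0.7615 at Am469, with the others at 0.7909 to 0.7966. Nut_Low_s_aa replicate 4 scored 0.9717 at Am1061, with the others at 0.9876 to 0.9905. At Gm1621, Heat_25 replicate 1 was highest at 0.9957, with the others at 0.9940 to 0.9942, and Nut_1x replicate 4 was lowest at 0.9876, with the others at 0.9916 to 0.9923.

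The knockdown difference was deeper in set B than in set A at 10 sites by a test of the difference itself (limma interaction term). The difference of set B minus set A was -0.2387 at Am469, -0.3844 at Um586, -0.1203 at Am1061, -0.1303 at Cm1096 and -0.2461 at Cm1303. It was -0.2937 at Um1357, -0.07582 at Gm1359, -0.1623 at Cm1367, -0.1603 at Am1806 and -0.1171 at Cm1831.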

How the results depend on the processing

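In the knockdown, 12 to 13 of the 14 sites were called when each library was left out in turn, and with the replicate block 13 were. Centred on library medians, Am28 (0.0662), Gm393 (0.06295) and Gm1621 (0.08291) turned to higher, and Am1061, Gm1359 and Cm1831 no longer passed, which left 6 lower and 3 higher. Centring turns any site that fell by less than the medians to a higher value. In LacZ_KD cells against head controls centring turned Am28 (0.008176), Um586 (0.006983), Am1061 (0.01369), Cm1096 (0.005338), Um1357 (0.02224), Gm1359 (0.01878), Gm1621 (0.02008) and Cm1831 (0.01305) to higher, and leaving out each library put Gm1952 between -0.08497 and 0.07573, above 0 only without LacZ_KD replicate 3. In that comparison 7 of the 10 sites with coverage of at least 10000 reads were called. With all 9 groups in 1 fit 1 was lower, beside 40.3% of all sites. For most settings of this section no share over all sites is given, so the counts are not read as particular to the 14 sites.

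At 29 against 18 °C the calls went to 1 with a replicate block or a variance trend and to 0 with all 9 groups in 1 fit, and lay between 0 and 4 when a library was left out; centred, 0 were higher and 3 lower. They were 0 without Heat_29 replicate 2 or Heat_18 replicate 2, 1 without Heat_29 replicate 1 or 4 or Heat_18 replicate 1 or 4, and 4 without Heat_18 replicate 3. At 29 against 25 °C they went to 1 with a replicate block, either other score or a variance trend, to 0 with all groups, to 2 higher and 1 lower when centred, and to 1 to 2 when a library was left out (1 without any of them but Heat_25 replicate 3). At 18 against 25 °C they were 0 to 1, with 1 without Heat_18 replicate 3 or Heat_25 replicate 1. On low-nutrient food they were 0 on the log2 odds scale and with all groups, and 3 when centred, 1 lower and 2 higher. When a library was left out they were 1 to 3, with 3, again 1 lower and 2 higher, without Nut_1x replicate 2. Same-numbered head libraries had correlations of mixed sign, between -0.377 and 0.344.

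The deeper fall in set B was called at 5 sites on the log2 odds scale. The gap between Um1357 and Gm1359 lay between -0.2917 and -0.2245 without each library. There 3 against 4 libraries gave an exact permutation p of 0.0571, the smallest that the two-sided test as run allows. With the replicate block the gap was -0.2574, p = 0.125 by exact permutation of signs, again the smallest allowed. Neither test could pass the threshold, so neither p shows that the gap weakens. The replicate block changed no other count of calls among the 14 sites beyond the limit used here. Why these values depend on the setting: the cause was not tested. At sites with scores close to 1 read ends are few, which limits how finely such sites can be ordered.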

Other observations

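Over the 26 head libraries, the scores of Cm1303 and Um1357 went together more than those of any other of the 91 pairs of the 14 sites (Pearson's r of 0.877, Spearman's rho of 0.861). The median r of the pairs was 0.212, and the range -0.408 to 0.877. With each group's mean taken off, r was 0.733 and rho 0.558. Um1357 and Cm1367 had an r of 0.692, and 0.825 with the group means taken off. Um1357 and Gm1359, which share a listed guide, had an r of 0.369, and 0.0930 with group means taken off. These values describe sites measured in the same libraries, which share depth and handling, and they were given no test.

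The read ends at several sites were divided otherwise in heads than in cells. At Am1061 5′ ends made up 84.9% of all ends in LacZ_KD cells and 54.1% in heads, and at Cm1367 65.0% in LacZ_KD cells and 43.9% in heads. At Am469 the shares were 85.5% in LacZ_KD cells and 81.5% in heads, and at Gm1952 36.3% and 38.3%. No library set held both, so source and set cannot be told apart in these shares.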
